A study of Mus musculus with 18 samples.

Results

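The genes described here are 8 genes of cholesterol sensing and cholesterol efflux in bone marrow-derived macrophages (BMDM). They were taken from the deposited table by symbol, as the receptors LXRα (Nr1h3) and LXRβ (Nr1h2) and 6 classic targets of these receptors, Abca1, Abcg1, Arl4c, Mylip, Lpcat3 and Pltp. All 8 were found among the 18668 genes of the table, and all 8 passed the filter on low values that left 12838 genes for testing.

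The liver X receptors (LXR) are nuclear receptors that bind DNA as heterodimers with the retinoid X receptors (RXR) and are switched on by oxysterols and other products of cholesterol. In a macrophage that takes up lipoprotein, active LXR raises genes that move cholesterol out of the cell and limit further uptake. Apoe, which carries effluxed cholesterol away, is itself a classic LXR target, and it is knocked out in every group of this study.

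RNA-seq was done on RNA isolated from BMDM of Apoe-/- mice and of Apoe-/-/Treml4-/- mice (Apoe/Treml4 DKO, below DKO), which came from a cross of Apoe-/- and Treml4-/- animals. The strain is given as C57BL6 for both, and no wild type cells were analysed here. Cells were differentiated for 7 days and then received vehicle (PBS, untreated), 10 µg/ml or 60 µg/ml of oxidized low-density lipoprotein (oxLDL), which macrophages of the artery wall engulf. Each of the 6 groups had 3 biological replicates, so 18 libraries were available. The series text gives a treatment of 16 hours, the exposure is stated differently elsewhere in the study, and a treatment label mentions LPS, which could not be resolved. Libraries of the same number within a genotype deviated together and were taken to come from the same animal.

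Levels are RPKM (reads scaled by gene length and library depth), given per replicate in the order 1, 2, 3 and as mean ± SD with n = 3. Changes are log2 fold changes of RPKM + 0.1 with their standard error (SE), tested with limma across all tested genes. A gene was called when its Benjamini-Hochberg adjusted p was under 0.05 and its fold at least 1.4, and "rose" and "fell" are used for called genes only. An exact permutation test of 3 against 3 libraries cannot give a p below 0.10, and for the 8 genes each called comparison with untreated cells reached that value. In bulk RNA, fewer cells of a type and less RNA per cell cannot be told apart.

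Depth recovered from the table was about 39700000 to 54200000 reads per library, and each of the 8 genes had at least 1200 reads in every library, so that counting error was at most 2.9% of a level. Treml4 was at 1.86 to 8.39 RPKM in the Apoe-/- libraries and at 0 to 0.012 RPKM in the DKO libraries. Residual Apoe transcripts lay between 0.937 and 4.13 RPKM in the Apoe-/- libraries and between 0.349 and 1.39 RPKM in the DKO libraries. The 8 macrophage markers summed to 5560 to 12000 RPKM per library, and the sum was lower with oxLDL 60 (6530 to 8480 in Apoe-/- and 5560 to 7150 in DKO) than in untreated cells (8930 to 11800 and 8380 to 11000). Most of the sum was Lyz2, at 3970 to 9910 RPKM. With oxLDL 60, Cd14, Fcgr1 and Lyz2 were called lower in both genotypes and Adgre1 in Apoe-/- cells, Mertk was called higher in both (0.68 and 0.70), and Cd68 was 0.42 and 0.29 higher and not called. The part of these markers in the results below was not tested. Markers of neutrophils and myeloid precursors summed to 26.1 to 72.8 RPKM, with Ly6g at 0 to 0.026. Markers of fibroblasts and stroma summed to 0.548 to 14.2 RPKM. Those of dendritic cells, mast cells, lymphocytes and erythroid cells each summed to at most 0.369 RPKM. In 6 libraries, replicate 2 of each Apoe-/- group and replicate 3 of each DKO group, Xist stood at 7.25 to 14.5 RPKM against at most 0.069 in the other 12, which had Y-linked transcripts at a sum of 41.7 to 63.4 RPKM. The sex of the cells thus differed within every group.

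In the mouse genome (GRCm38, the assembly that mm10 also names, GENCODE M21 annotation) the transporter genes Abca1 and Abcg1 lie at chr4:53030787-53159895 on the minus strand and at chr17:31057675-31117988 on the plus strand. Arl4c lies at chr1:88673125-88702221 (minus), Mylip at chr13:45389742-45412022 (plus), Lpcat3 at chr6:124663027-124704418 (plus) and Pltp at chr2:164839518-164857711 (minus). The receptor genes Nr1h3 and Nr1h2 lie at chr2:91184061-91202834 and chr7:44549616-44553951, both on the minus strand. Exons of Pltp and of Ctsa, which lies on the other strand, overlap by 495 bases or 19.3% of the exonic length of Pltp, and Ctsa had a mean of 178 RPKM. Exons of Lpcat3 overlap those of Emg1 on the other strand by 334 bases (10.2%, mean of Emg1 51.5 RPKM), and those of Nr1h3 overlap Gm13783 on the same strand by 34 bases (1.35%). The libraries are labelled as stranded, but whether the authors' counting used the strand is not given in the sources used here, so reads in these stretches may belong to either gene.

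LXR with RXR binds a pair of hexamers spaced by 4 bases (DR4). The 250 bases before the RefSeq start (GRCm38.p6) were available for 7 of the 8 genes, all but Abcg1, and were searched on both strands for the closest match to AGGTCA written a second time after a spacer of 4 free bases, which has 12 fixed letters. Of 32851 promoters of that length 18.5% held a match with at most 3 mismatches and 70.6% with at most 4. Among the 8 genes, Abca1 and Arl4c had a match with 3 mismatches, both in the opposite orientation to the gene, at 67 to 52 and 75 to 60 bases before the start. Nr1h3, Nr1h2 and Lpcat3 had 4 mismatches at best, Pltp 5 and Mylip 6. The promoters of 3 genes that rose with oxLDL and of the receptor that fell are shown 5′ to 3′ on the strand of the gene, with the closest match in capitals. A match is a description of the letters, and binding was not measured. The region shown for Nr1h3 lies inside the longer GENCODE gene.
Abca1 (chr4:53159896-53160145, minus): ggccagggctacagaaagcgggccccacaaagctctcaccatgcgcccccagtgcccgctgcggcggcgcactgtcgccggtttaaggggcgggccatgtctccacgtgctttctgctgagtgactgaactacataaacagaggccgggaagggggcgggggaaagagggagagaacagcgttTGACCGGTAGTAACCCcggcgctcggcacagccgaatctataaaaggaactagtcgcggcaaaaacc
Arl4c (chr1:88702192-88702441, minus): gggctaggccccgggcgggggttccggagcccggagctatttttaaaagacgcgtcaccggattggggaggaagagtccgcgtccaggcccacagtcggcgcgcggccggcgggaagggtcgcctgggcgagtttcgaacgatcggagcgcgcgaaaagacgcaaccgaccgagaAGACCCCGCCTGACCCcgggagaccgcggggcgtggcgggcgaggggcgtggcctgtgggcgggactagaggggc
Mylip (chr13:45389492-45389741, plus): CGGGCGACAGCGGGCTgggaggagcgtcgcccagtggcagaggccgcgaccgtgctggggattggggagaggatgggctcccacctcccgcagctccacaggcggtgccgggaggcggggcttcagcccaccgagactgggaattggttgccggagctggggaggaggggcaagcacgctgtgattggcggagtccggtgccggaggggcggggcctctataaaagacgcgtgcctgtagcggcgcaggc
Nr1h3 (chr2:91195036-91195285, minus): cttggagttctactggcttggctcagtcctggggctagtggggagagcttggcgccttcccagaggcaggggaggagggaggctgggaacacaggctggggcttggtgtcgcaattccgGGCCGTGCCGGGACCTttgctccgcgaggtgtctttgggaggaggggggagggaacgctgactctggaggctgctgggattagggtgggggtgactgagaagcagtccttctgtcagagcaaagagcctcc

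Of the 8 genes, Pltp was the most abundant over all 18 libraries, at a mean of 84.8 RPKM, followed by Abcg1 at 58.7 and Arl4c at 55.2 RPKM. Abca1 (23.2), Mylip (21.6), Nr1h3 (19.9), Nr1h2 (18.0) and Lpcat3 (14.6 RPKM) followed. All 8 therefore stood above at least 70.4% of the tested genes by mean level. Reads in the stretch shared with Ctsa may be counted in Pltp, so its first place among the 8 is not certain. The plot of RPKM in each library shows these levels side by side.

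**Figure D1:**
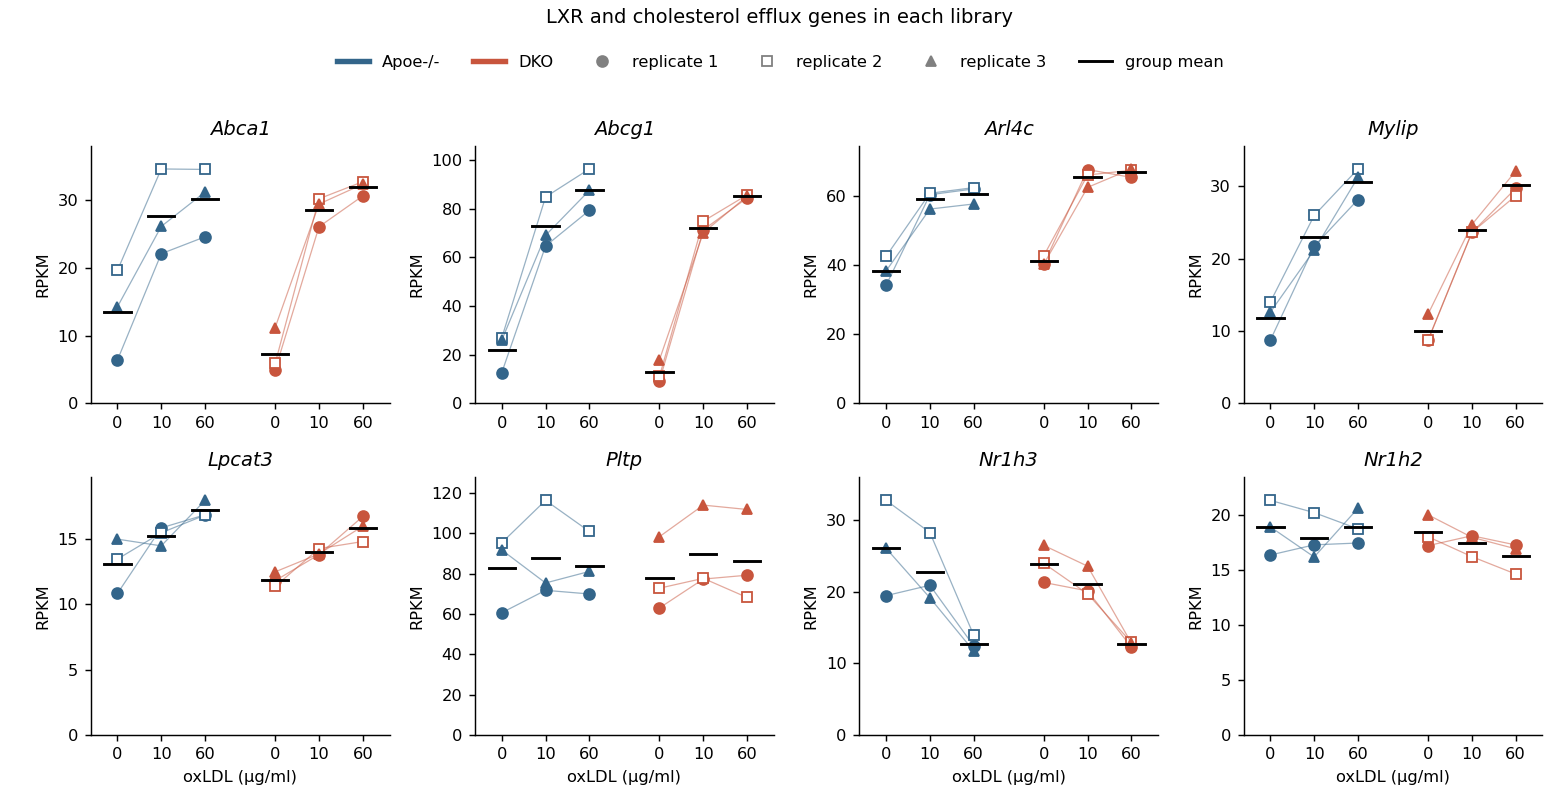
RPKM (y axis, linear, from 0) of the 8 genes in each of the 18 libraries, against oxLDL in µg/ml (x axis, 0 for untreated) for Apoe-/- (blue) and DKO (red). Symbols give the replicate number, thin lines join libraries of the same number within a genotype, and black bars are group means. Abca1, Abcg1, Arl4c and Mylip are above their untreated libraries in all oxLDL libraries of the same genotype, Nr1h3 is at 11.7 to 13.9 RPKM in the 6 libraries with oxLDL 60, and Nr1h2 stays between 14.6 and 21.4 RPKM.

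The efflux transporters rose with both amounts of oxLDL in both genotypes. Abcg1, a half-transporter that moves cholesterol towards mature high-density lipoprotein, was at 12.6, 26.9 and 26.0 RPKM in untreated Apoe-/- cells (mean 21.8 ± 8.0), at 64.7, 84.8 and 69.1 with oxLDL 10 (72.9 ± 10.6), and at 79.3, 96.4 and 87.6 with oxLDL 60 (87.7 ± 8.5). In DKO cells it was at 9.24, 11.1 and 18.0 RPKM untreated (12.8 ± 4.6), at 71.3, 74.9 and 70.1 with oxLDL 10 (72.1 ± 2.5), and at 84.4, 85.7 and 85.2 with oxLDL 60 (85.1 ± 0.618). No treated library overlapped with an untreated one in either genotype. The log2 fold change of Abcg1 was 1.80 (SE 0.24, adjusted p = 2.98e-04) with oxLDL 10 and 2.08 (adjusted p = 3.90e-06) with oxLDL 60 in Apoe-/- cells, and 2.55 (adjusted p = 1.13e-05) and 2.79 (adjusted p = 1.53e-07) in DKO cells. With oxLDL 10, Abcg1 had the largest rise of all 12838 tested genes in DKO cells, and 1 gene had a larger one in Apoe-/- cells. With oxLDL 60, 24 genes in Apoe-/- cells and 4 in DKO cells rose more.

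Abca1, which loads cholesterol and phospholipid onto lipid-poor apolipoproteins, started from lower and more scattered levels. It was at 6.40, 19.6 and 14.3 RPKM in untreated Apoe-/- cells (13.4 ± 6.7), at 22.1, 34.6 and 26.1 with oxLDL 10 (27.6 ± 6.4), and at 24.6, 34.6 and 31.2 with oxLDL 60 (30.1 ± 5.1). DKO cells had 4.96, 5.90 and 11.2 RPKM untreated (7.36 ± 3.37), 26.1, 30.2 and 29.5 with oxLDL 10 (28.6 ± 2.2), and 30.7, 32.8 and 32.4 with oxLDL 60 (31.9 ± 1.1). Treated and untreated libraries did not overlap within a genotype. The log2 fold change was 1.15 (SE 0.32, adjusted p = 0.0385) with oxLDL 10 and 1.29 (adjusted p = 0.00522) with oxLDL 60 in Apoe-/- cells, and 2.03 (adjusted p = 0.00142) and 2.19 (adjusted p = 5.85e-05) in DKO cells. The call of Abca1 in Apoe-/- cells with oxLDL 10 was lost with no filter on low values (adjusted p = 0.0868), after rescaling the libraries (0.0528), with only the compared groups fitted (0.117), and without untreated Apoe-/- replicate 1 (log2 fold change 0.69, adjusted p = 0.160), Apoe-/- oxLDL 10 replicate 1 (1.30, 0.0588), replicate 2 (0.98, 0.119) or replicate 3 (1.18, 0.0811), or DKO oxLDL 60 replicate 1 (1.15, 0.0502). Without untreated Apoe-/- replicate 1, the change of Abca1 with oxLDL 60 was 0.83 and was still called (adjusted p = 0.0298).

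Relative to the mean, replicates of both transporters differed less with oxLDL 60 than untreated, while the SD of Abcg1 in Apoe-/- cells was about as large (8.0 and 8.5 RPKM). The coefficient of variation of Abca1 was 49.6% in untreated Apoe-/- and 45.8% in untreated DKO cells, against 16.8% and 3.5% with oxLDL 60, and that of Abcg1 was 36.7% and 36.1% against 9.7% and 0.726%. Within a replicate number, the change of Abcg1 with oxLDL 60 ran from 1.75 to 2.65 in Apoe-/- cells and from 2.24 to 3.18 in DKO cells, and the largest change belonged in each genotype to the replicate with the lowest untreated level, from which the change is computed. The level of Abcg1 was 1.72 ± 0.31 times that of Abca1 in untreated Apoe-/- cells and 2.94 ± 0.25 times with oxLDL 60, and 1.78 ± 0.15 and 2.67 ± 0.08 times in DKO cells. The ratios of the 3 untreated and the 3 oxLDL 60 libraries did not overlap in either genotype.

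Mylip and Arl4c rose in the same 4 comparisons. Mylip (Idol), a ubiquitin ligase that sends lipoprotein receptors to degradation, was at 8.73, 14.0 and 12.6 RPKM in untreated Apoe-/- cells, at 21.7, 26.0 and 21.2 with oxLDL 10, and at 28.1, 32.4 and 31.2 with oxLDL 60. In DKO cells it was at 8.74, 8.74 and 12.3 RPKM untreated, at 23.6, 23.6 and 24.7 with oxLDL 10, and at 29.7, 28.7 and 32.1 with oxLDL 60. The 3 conditions did not overlap in either genotype. The log2 fold change of Mylip was 0.98 (SE 0.15, adjusted p = 7.77e-04) with oxLDL 10 and 1.39 (adjusted p = 1.58e-06) with oxLDL 60 in Apoe-/- cells, and 1.28 (adjusted p = 9.85e-05) and 1.61 (adjusted p = 3.46e-07) in DKO cells.

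Arl4c, a small GTPase of the ARF family that has been tied to cholesterol movement towards the cell surface, had the smallest rise of the 4 genes and the smallest SE in the fit. It was at 34.1, 42.5 and 38.3 RPKM in untreated Apoe-/- cells, at 60.3, 60.8 and 56.2 with oxLDL 10, and at 62.0, 62.4 and 57.7 with oxLDL 60. DKO cells had 40.3, 42.7 and 40.3 RPKM untreated, 67.6, 66.0 and 62.5 with oxLDL 10, and 65.3, 67.4 and 67.8 with oxLDL 60. Treated libraries stood clear of untreated ones, and the 2 amounts of oxLDL overlapped. The log2 fold change of Arl4c was 0.63 (SE 0.07, adjusted p = 4.82e-05) and 0.67 (adjusted p = 9.82e-07) in Apoe-/- cells and 0.67 (adjusted p = 2.74e-05) and 0.70 (adjusted p = 6.34e-07) in DKO cells.

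Of the 2 genes of phospholipid remodelling and transfer, neither was called. Lpcat3, which puts polyunsaturated acyl chains into membrane phospholipids, was at 10.8, 13.5 and 15.0 RPKM in untreated Apoe-/- cells, at 15.9, 15.5 and 14.5 with oxLDL 10, and at 16.9, 16.9 and 18.0 with oxLDL 60. In DKO cells it was at 11.8, 11.4 and 12.5 RPKM untreated, at 13.8, 14.3 and 13.9 with oxLDL 10, and at 16.7, 14.8 and 16.0 with oxLDL 60. With oxLDL 60 all libraries lay above the untreated ones of their genotype. The log2 fold change was 0.40 (SE 0.09, adjusted p = 0.00211) in Apoe-/- and 0.41 (adjusted p = 0.00219) in DKO cells, a fold of 1.32 and 1.33 that passes the limit on p and not the limit of 1.4 on the fold. Without untreated Apoe-/- replicate 3 the change of Lpcat3 in Apoe-/- cells was 0.51 and was called.

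Pltp, which transfers phospholipid between lipoproteins, was at 60.6, 95.4 and 91.8 RPKM in untreated Apoe-/- cells, at 71.7, 116 and 75.4 with oxLDL 10, and at 69.9, 101 and 81.1 with oxLDL 60. DKO cells had 63.0, 72.8 and 98.4 RPKM untreated, 77.3, 77.7 and 114 with oxLDL 10, and 79.2, 68.2 and 112 with oxLDL 60. The groups overlapped throughout. Its log2 fold changes in the 4 comparisons with untreated cells ran from 0.04 to 0.20, with SE 0.24 and adjusted p of 0.727 to 0.932, and the 95% interval with oxLDL 60 was -0.47 to 0.54 in Apoe-/- and -0.37 to 0.65 in DKO cells. Changes of Pltp of these sizes lie within the spread between libraries of a group. Within a replicate number its change with oxLDL 10 ran from -0.284 to 0.288 in Apoe-/- and from 0.0937 to 0.295 in DKO cells. With oxLDL 60 it ran from -0.178 to 0.206 and from -0.0942 to 0.331.

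**Figure D2:**
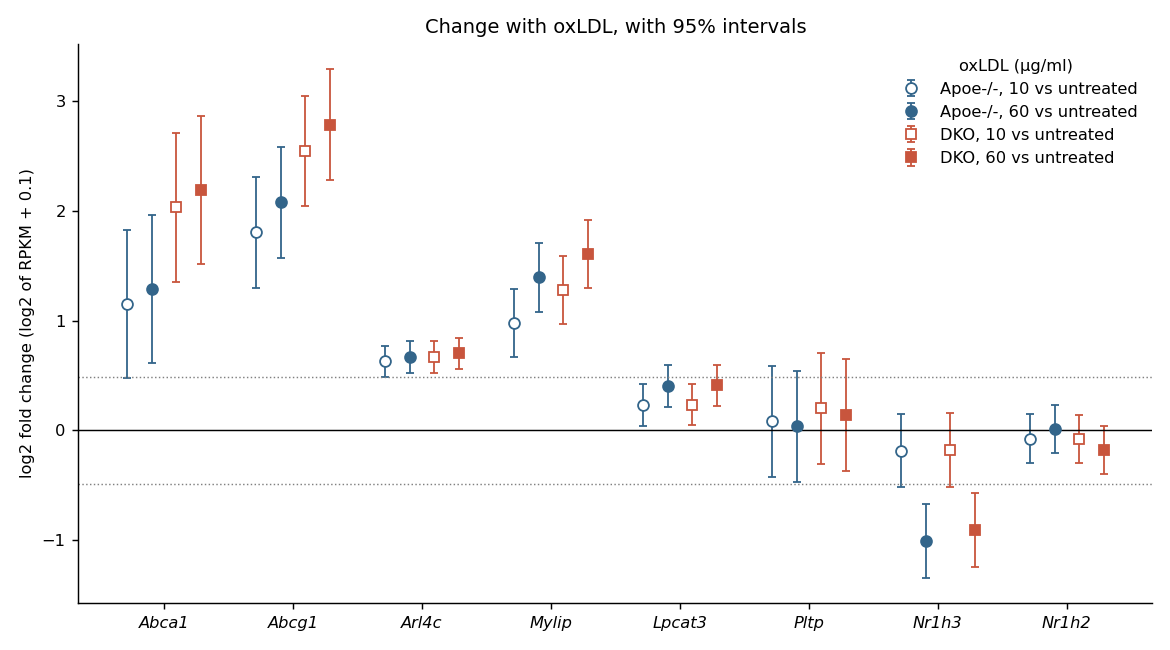
Log2 fold change against untreated cells of the same genotype (y axis, on log2 of RPKM + 0.1) for the 8 genes, at 10 µg/ml (open) and 60 µg/ml (filled) oxLDL in Apoe-/- (blue circles) and DKO (red squares). Bars are 95% intervals of the limma fit over 18 libraries, and dotted lines mark the fold of 1.4. Abcg1 runs from 1.80 to 2.79, Abca1 from 1.15 to 2.19, Mylip from 0.98 to 1.61 and Arl4c from 0.63 to 0.70, and Nr1h3 is at -1.01 and -0.91 with oxLDL 60.

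The 2 receptors differed. Nr1h3, the receptor gene that is high in macrophages and liver, was at 19.4, 32.7 and 26.0 RPKM in untreated Apoe-/- cells (26.1 ± 6.7), at 20.9, 28.2 and 19.1 with oxLDL 10 (22.7 ± 4.8), and at 12.4, 13.9 and 11.7 with oxLDL 60 (12.7 ± 1.1). In DKO cells it was at 21.3, 23.9 and 26.4 RPKM untreated (23.9 ± 2.6), at 20.1, 19.7 and 23.5 with oxLDL 10 (21.1 ± 2.1), and at 12.2, 12.9 and 12.8 with oxLDL 60 (12.6 ± 0.354). The 6 libraries with oxLDL 60 lay below all 12 others. Nr1h3 fell with oxLDL 60 by 1.01 on the log2 scale in Apoe-/- cells (SE 0.16, adjusted p = 1.13e-04) and by 0.91 in DKO cells (adjusted p = 3.41e-04), to 0.498 and 0.533 of the untreated level. With oxLDL 10 it was not called, at -0.18 in both genotypes, with 95% intervals of -0.52 to 0.15 and -0.51 to 0.16.

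Nr1h2, the receptor gene expressed in most tissues, was at 16.4, 21.4 and 18.9 RPKM in untreated Apoe-/- cells and at 17.5, 18.8 and 20.6 with oxLDL 60, and at 17.2, 18.0 and 20.0 RPKM in untreated DKO cells and at 17.3, 14.6 and 16.9 with oxLDL 60. These groups overlapped. The log2 fold changes of Nr1h2 with oxLDL were between -0.18 and 0.01 in the 4 comparisons, with SE 0.10 and adjusted p of 0.237 to 0.957, and the widest interval bound was -0.40. Nr1h3 was above Nr1h2 in every untreated and oxLDL 10 library, by a factor of 1.36 ± 0.17 in untreated Apoe-/- and 1.29 ± 0.05 in untreated DKO cells. With oxLDL 60 it was below Nr1h2 in all 6 libraries, at 0.673 ± 0.093 and 0.781 ± 0.089 of its level.

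**Figure D3:**
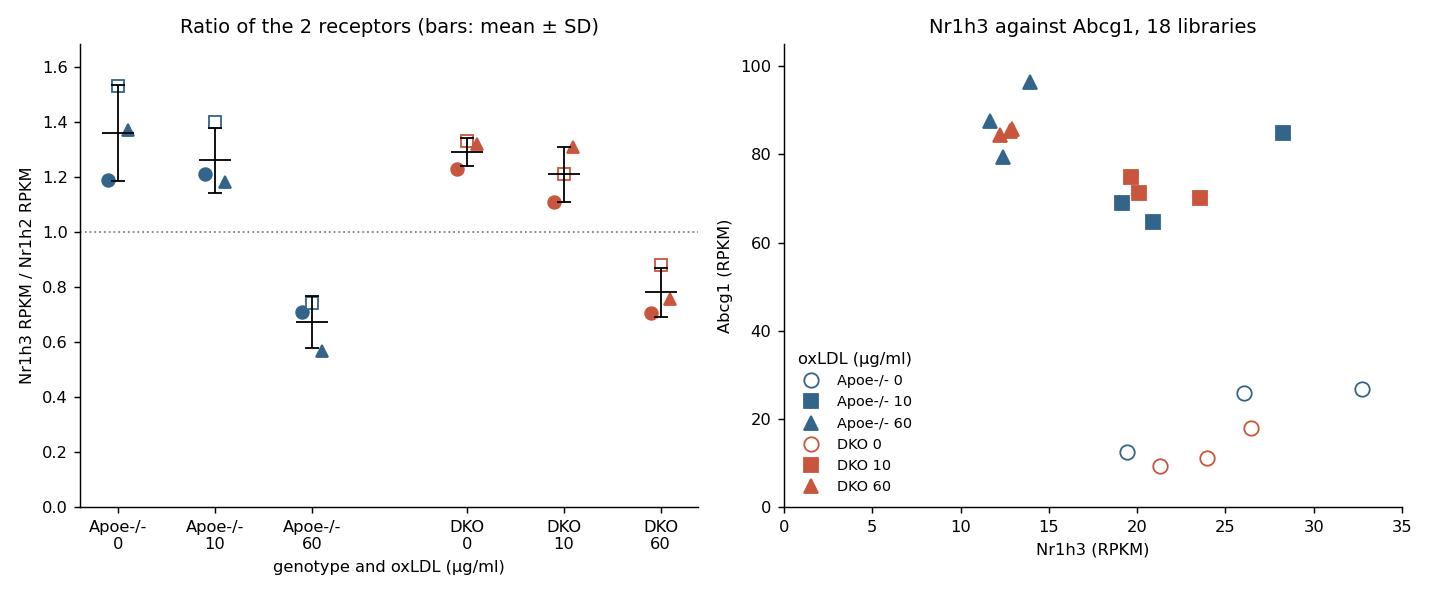
Left, Nr1h3 RPKM divided by Nr1h2 RPKM (y axis, linear, from 0) in each library by genotype and oxLDL in µg/ml, with the replicate number as symbol (1 circle, 2 open square, 3 triangle) and mean ± SD in black. Right, Nr1h3 (x axis, RPKM) against Abcg1 (y axis, RPKM) in the 18 libraries, with untreated cells as open circles, oxLDL 10 as squares and oxLDL 60 as triangles, blue for Apoe-/- and red for DKO. The ratio is above 1 in the 12 libraries without oxLDL 60 and below 1 in the 6 with it. These 6 have the least Nr1h3, with Abcg1 at 79.3 to 96.4 RPKM. Apoe-/- oxLDL 10 replicate 2 also has Abcg1 in that range (84.8 RPKM), with Nr1h3 at 28.2 RPKM.

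Read against the whole table, 4 of the 8 genes rose with oxLDL 10 in Apoe-/- cells, where 0.748% of tested genes were called higher, and the same 4 (Abca1, Abcg1, Arl4c and Mylip) in DKO cells, where 0.569% were. With oxLDL 60 these 4 rose and Nr1h3 fell in both genotypes. There 7.13% of genes were called higher and 6.78% lower in Apoe-/- cells, and 4.87% and 7.31% in DKO cells. The median change of the 8 genes was 0.43 and 0.54 in Apoe-/- cells with oxLDL 10 and 60, against 0.07 and 0.06 over all tested genes, and 0.45 and 0.56 in DKO cells against 0.02 and -0.06. The comparisons with oxLDL 10 and 60 share their untreated libraries. Groups that did not overlap were common in the table. The treated libraries lay above the untreated ones for 14.3% and 25.8% of tested genes in Apoe-/- cells with oxLDL 10 and 60, and for 10% and 14.3% in DKO cells, and below them with oxLDL 60 for 14.9% and 28.3%.

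Between the 2 amounts of oxLDL, Nr1h3 was the 1 gene of the 8 that was called. It fell from oxLDL 10 to oxLDL 60 by 0.82 on the log2 scale (SE 0.16, adjusted p = 0.00177) in Apoe-/- and by 0.73 (adjusted p = 0.00451) in DKO cells, where 3.54% and 3.74% of tested genes were called lower and 15.5% and 25.8% lay lower without overlap. Mylip was higher in all 3 libraries with oxLDL 60 than in all 3 with oxLDL 10 in both genotypes, and so was Lpcat3, while Abca1 and Abcg1 were so in DKO cells and overlapped in Apoe-/- cells. Groups that did not overlap and were higher with oxLDL 60 were found for 15% of tested genes in Apoe-/- and 7.89% in DKO cells. The log2 difference of Mylip was 0.42 (SE 0.15, adjusted p = 0.0759) and 0.33 (adjusted p = 0.153), and that of Lpcat3 was 0.17 (adjusted p = 0.241) and 0.18 (adjusted p = 0.200). Abca1 differed by 0.14 and 0.16 (SE 0.32), Abcg1 by 0.27 and 0.24 (SE 0.24) and Arl4c by 0.04 and 0.03 (SE 0.07), with adjusted p of 0.542 or more. For these 3 genes no difference between the amounts passed the test, and the 95% upper bounds were 0.84, 0.78 and 0.18. This fit does not pair libraries by replicate number. Within a number, Abcg1, Mylip and Lpcat3 were higher with oxLDL 60 in all 3 pairs of each genotype. For Abcg1 this was by 0.183 to 0.342 in Apoe-/- and 0.194 to 0.28 in DKO cells. Over the 28 alternatives none of these genes gained a call. Their smallest limma adjusted p over these alternatives was 0.018 (Abcg1, DKO), 0.0053 and 0.012 (Mylip, Apoe-/- and DKO) and 0.016 (Lpcat3, DKO). There the limit on the fold was not passed. In Apoe-/- cells the smallest was 0.18 for Abcg1 and 0.068 for Lpcat3. Equal levels at both amounts are not shown.

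The genotypes were compared at each treatment. None of the 8 genes was called between DKO and Apoe-/- cells, where 0.21% of tested genes were called untreated, 0.0857% with oxLDL 10 and 0.125% with oxLDL 60. In untreated cells the transporters had the largest differences. Abca1 was 0.81 lower on the log2 scale in DKO cells (SE 0.32, 95% interval -1.48 to -0.13, adjusted p = 0.221) and Abcg1 0.75 lower (SE 0.24, interval -1.25 to -0.25, adjusted p = 0.151), and 42 and 62 tested genes had a larger fall. The genotypes overlapped because untreated Apoe-/- replicate 1, at 6.40 RPKM of Abca1 and 12.6 of Abcg1, lay within the range of the DKO libraries, and DKO replicate 3, at 11.2 and 18.0 RPKM, lay within that of Apoe-/-. Abcg1 was called lower in untreated DKO cells without Apoe-/- replicate 1 (log2 difference -1.10, adjusted p = 0.0265), without DKO replicate 3 (-1.02, adjusted p = 0.0456), with a term for the 6 Xist-positive libraries (-0.75, adjusted p = 0.0321) and with those libraries left out (-0.83, adjusted p = 0.0415). The cause was not tested. Abca1 was called in none of these.

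With oxLDL the estimates lay near 0. Abca1 differed between the genotypes by 0.07 and 0.10 and Abcg1 by -0.01 and -0.04 with oxLDL 10 and 60, with 95% intervals that ran, over both amounts, from -0.60 to 0.77 for Abca1 and from -0.54 to 0.50 for Abcg1. The estimated change with oxLDL was larger in DKO cells by 0.88 (SE 0.45) and 0.91 for Abca1, by 0.74 (SE 0.34) and 0.71 for Abcg1 and by 0.30 (SE 0.21) and 0.21 for Mylip. As a test of the difference itself, the interaction of genotype and oxLDL was called for none of them, with adjusted p of 0.99999 for all 3 genes with oxLDL 10, and of 0.514, 0.511 and 0.726 with oxLDL 60. With oxLDL 10 no gene at all was called by limma for the interaction, and 246 of 12838 had an unadjusted p under 0.05. That share is below the 0.05 expected where no gene has an interaction. The fit does not pair libraries by replicate number, so the spread between replicate numbers stays in its error. These adjusted p therefore do not show that interactions are absent. With the replicate number as a block, Abca1, Abcg1 and Mylip were not called either. With oxLDL 60, 2 genes were called (0.0156%), Treml4 and Dnajb3, the second of which was named after its values were seen. Rescaling the libraries moved the median interaction of all genes with oxLDL 60 by 0.12, and the value of Abca1 to 1.03 and that of Abcg1 to 0.84, with neither called.

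**Figure D4:**
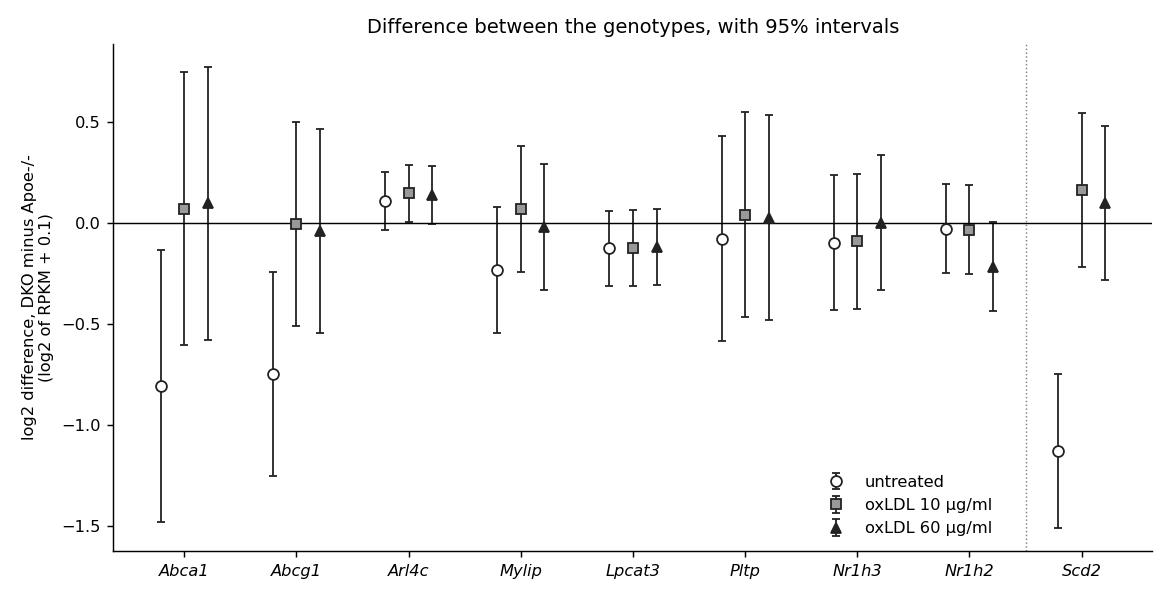
Log2 difference between DKO and Apoe-/- cells (y axis, on log2 of RPKM + 0.1) for the 8 genes and, right of the dotted line, Scd2, in untreated cells (open circles), with oxLDL 10 (grey squares) and with oxLDL 60 (black triangles). Bars are 95% intervals of the limma fit over 18 libraries. In untreated cells Abca1 is at -0.81, Abcg1 at -0.75 and Scd2 at -1.13, and with oxLDL all 3 are between -0.04 and 0.16.

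Small differences that did not overlap were seen for 3 of the 8 genes. Arl4c was higher in all DKO than in all Apoe-/- libraries with oxLDL 10 and with oxLDL 60, by 0.15 (SE 0.07, adjusted p = 0.503) and 0.14 (adjusted p = 0.637). Lpcat3 was lower in DKO with both amounts, by 0.13 (SE 0.09, adjusted p = 0.639) and 0.12 (adjusted p = 0.761), and Nr1h2 was lower in DKO with oxLDL 60, by 0.22 (SE 0.10, adjusted p = 0.636). Of all tested genes 8.98% and 4.49% lay higher in DKO without overlap with oxLDL 10 and 60, and 3.12% and 12% lower.

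Libraries with Xist stood high for some of the 8 genes. Pltp and Mylip were highest of their 3 replicates in the Xist-positive library in 6 of 6 groups, Nr1h3 in 5, Abca1, Abcg1 and Arl4c in 4, Nr1h2 in 3 and Lpcat3 in 1. Of 12836 tested symbols 321 (2.5%) were highest there in 6 of 6 groups. In DKO cells Pltp was at 98.4, 114 and 112 RPKM in these libraries against 63.0 to 79.2 in the other 6. The labels name no animal. With 1 such replicate number per genotype, sex cannot be told apart from the animal or from anything else these libraries share.

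The other genes around LXR were described by lists. Of the RXR partners and coregulators, 8 of 9 were tested (Rxrg was not), and 0 were called in any of the 11 comparisons. Rxra, an RXR partner named after its values were seen, was at 9.25 ± 0.57 RPKM in untreated and 12.1 ± 0.9 with oxLDL 60 in Apoe-/- cells, a log2 difference of 0.39 (adjusted p = 0.0210) that is under the limit on the fold. In DKO cells Rxra was at 9.87 ± 1.45 and 11.8 ± 0.98 RPKM, a log2 difference of 0.26, and these groups overlapped. The list had a median change of -0.15 with oxLDL 60 in Apoe-/- and -0.11 in DKO cells, against 0.06 and -0.06 over all tested genes.

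Further LXR targets went both ways. Of 12 tested genes (Abcg5, Abcg8 and Cyp7a1 were not tested), 3 rose and 4 fell with oxLDL 60 in Apoe-/- cells, and 4 rose and 3 fell in DKO cells. With oxLDL 10, 1 rose and 2 fell in Apoe-/- cells, and 2 rose and 1 fell in DKO cells, where 2.04% and 1.69% of all tested genes were called lower. Scd2, a stearoyl-CoA desaturase, had the largest rise in all 4. It was at 5.68 ± 2.08 RPKM untreated, 10.9 ± 1.2 with oxLDL 10 and 11.7 ± 2.0 with oxLDL 60 in Apoe-/- cells, and at 2.45 ± 0.23, 12.2 ± 1.3 and 12.5 ± 0.7 in DKO cells. The log2 fold changes were 0.97 (adjusted p = 0.00341) and 1.08 (2.04e-04) in Apoe-/- and 2.26 (7.17e-06) and 2.31 (5.28e-08) in DKO cells. Fads2, a fatty acid desaturase, had the largest fall with oxLDL 10, at -0.86 in Apoe-/- and -0.79 in DKO cells, the second of which was lost under 6 of 28 alternatives, among them those without DKO untreated replicate 1 or 3 or DKO oxLDL 10 replicate 1 or 2. Fasn, the fatty acid synthase, had the largest fall with oxLDL 60, at -1.39 and -1.28. The other called genes of this list are named after their values were seen. With oxLDL 60 Fads2 fell, as did Lpl, a lipase that frees fatty acids from lipoproteins (-0.81 and -0.68), and, in Apoe-/- cells, Acaca of fatty acid synthesis (-0.62). Lpl in DKO cells was not called without the Xist-positive libraries (-0.42, adjusted p = 0.0799). Mertk, a receptor for the uptake of dying cells, rose with oxLDL 60 by 0.68 in Apoe-/- and 0.70 in DKO cells, and by 0.82 in DKO cells with oxLDL 10. The first of these calls was lost without Apoe-/- untreated replicate 1 (0.44, adjusted p = 0.0936) or oxLDL 60 replicate 2 (0.50), the second without DKO untreated replicate 1 (0.62) or oxLDL 60 replicate 3 (0.63), and the third under 5 alternatives, among them those without DKO untreated replicate 1 or 3 or oxLDL 10 replicate 1 or 2. Smpdl3a, a phosphodiesterase, rose by 0.65 and 0.51, the second lost without DKO oxLDL 60 replicate 2 (0.45). Scd1, a further desaturase, rose by 0.95 in DKO cells and was at 0.18 and not called with a pseudocount of 1. Fasn also fell from oxLDL 10 to 60 by 0.65 in Apoe-/- and 0.80 in DKO cells.

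Scd2 was the 1 gene of these lists that was called between the genotypes. In untreated DKO cells it was lower by 1.13 on the log2 scale (SE 0.18, adjusted p = 0.0106), and the libraries did not overlap, at 4.36 to 8.07 RPKM in Apoe-/- and 2.18 to 2.58 in DKO cells, as for 1.23% of tested genes. The call was lost with only the compared groups fitted (adjusted p = 0.124) and without untreated DKO replicate 2 (-1.05, adjusted p = 0.0635). With oxLDL 10 and 60 the difference was 0.16 and 0.10. The interaction for Scd2 was 1.29 (SE 0.26) and 1.23, not called (adjusted p = 0.99999 and 0.414), and called when the replicate number was a block (adjusted p = 0.0386 and 0.0231).

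**Figure D5:**
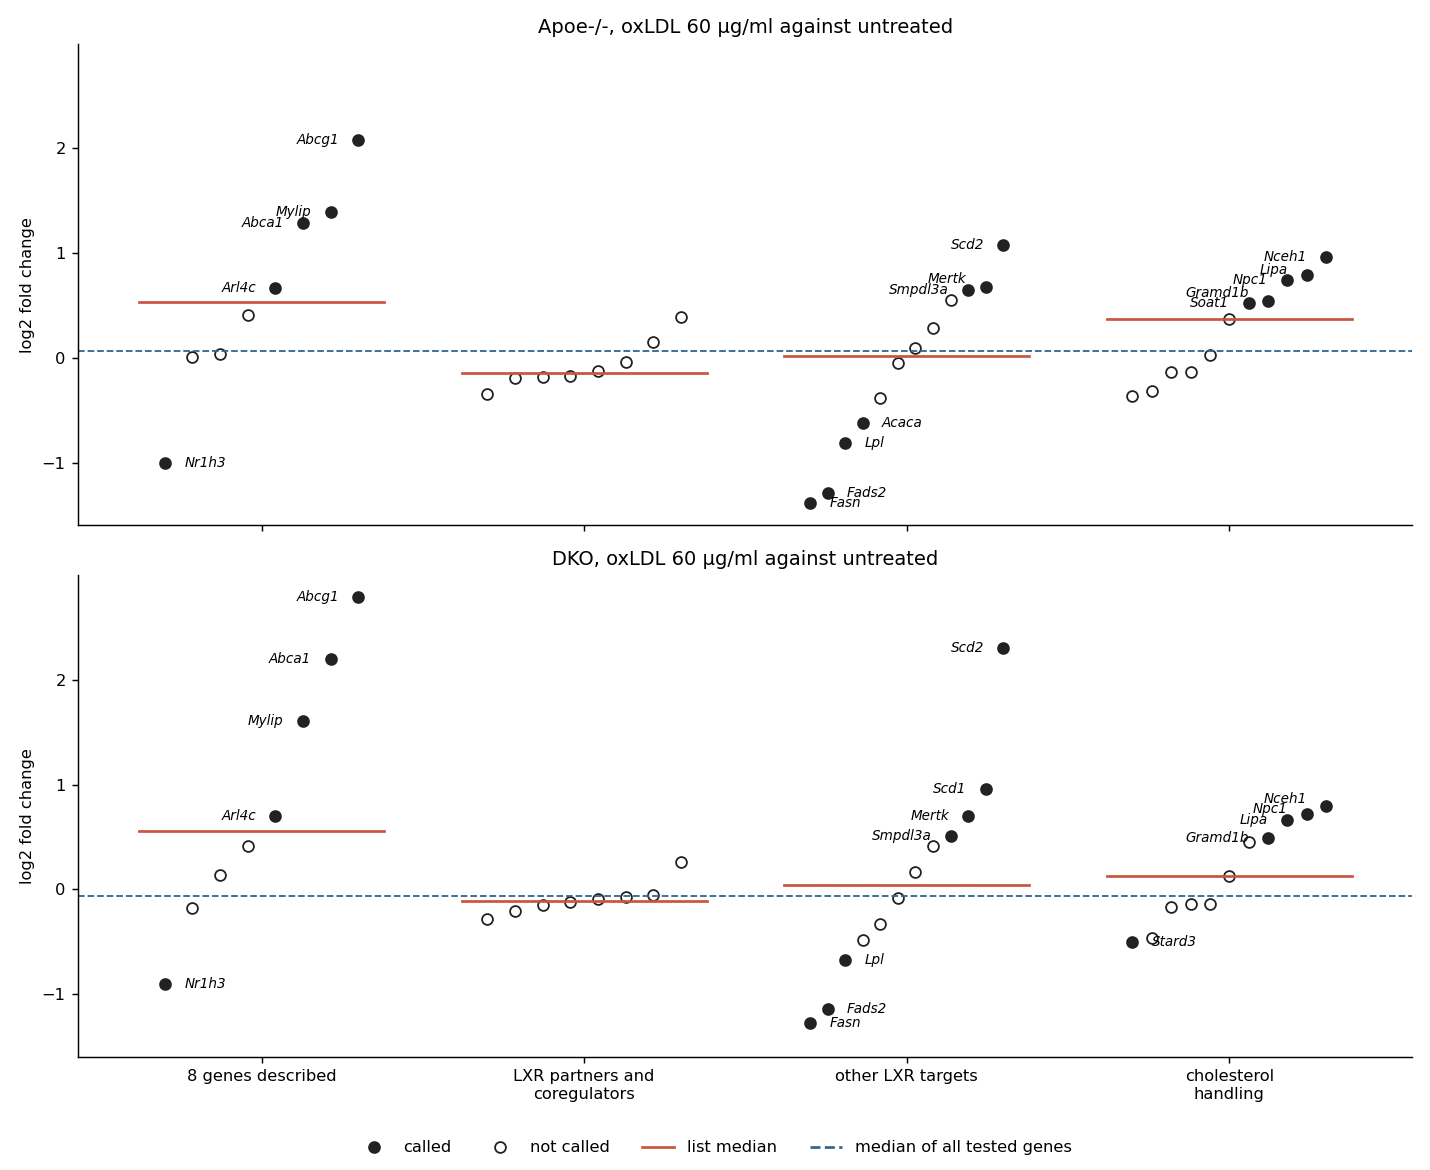
Log2 fold change with 60 µg/ml oxLDL against untreated cells (y axis) for the tested genes of 4 lists (x axis), in Apoe-/- (top) and DKO cells (bottom). Filled points are called genes and carry their symbol, open points are not called, red lines are list medians and the dashed line is the median of all 12838 tested genes (0.06 and -0.06). No partner or coregulator of LXR is called, and in the list of cholesterol handling 5 genes rise in Apoe-/- cells and 4 in DKO cells.

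Of 11 genes that free, store and move cholesterol inside the cell, 5 rose, 0 fell and 6 were not called in Apoe-/- cells with oxLDL 60, and 4 rose, 1 fell and 6 were not called in DKO cells. Some of these rises were near the limits, and their genes are named after their values were seen. Soat1 in Apoe-/- cells (0.52) lost its call under 3 of 28 alternatives. Gramd1b lost it under 2 in Apoe-/- cells (0.54) and under 5 in DKO cells (0.49). With oxLDL 10, 0 rose in Apoe-/- and 1 in DKO cells. Nceh1, a hydrolase of cholesteryl esters, had the largest rise, from 62.6 ± 3.4 to 122 ± 6 RPKM in Apoe-/- cells (log2 fold change 0.96, adjusted p = 1.28e-07) and from 66.4 ± 6.8 to 115 ± 2 in DKO cells (0.80, adjusted p = 1.16e-06). With oxLDL 10 Nceh1 was called in DKO cells, at 0.49, and that call was lost under 6 of 28 alternatives, among them those without DKO untreated replicate 3 or DKO oxLDL 10 replicate 1 or 2. Stard3, a sterol transporter of late endosomes, was the 1 that fell in DKO cells, at -0.50, which was lost under 5, among them those without DKO untreated replicate 3 or oxLDL 60 replicate 2. From oxLDL 10 to 60, 2 genes rose in Apoe-/- cells, where 2.91% of tested genes were called higher. Npc1, which exports cholesterol from the lysosome, rose by 0.53, a call lost without Apoe-/- oxLDL 10 replicate 2 (0.43, adjusted p = 0.0537) or oxLDL 60 replicate 3 (0.49, adjusted p = 0.0521). Nceh1 rose by 0.53 and was not called, by the limit on the fold, without the Xist-positive libraries (0.4852). In DKO cells 0 of the 11 were called between the amounts.

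Of the genes of oxysterol synthesis, Ch25h and Cyp27a1 are described here (Cyp46a1 and Cyp7b1 were not tested). Ch25h, which makes 25-hydroxycholesterol, an LXR ligand, fell in all 6 comparisons within a genotype. It went from 30.2 ± 6.6 RPKM untreated to 9.76 ± 2.73 with oxLDL 10 and 2.06 ± 0.56 with oxLDL 60 in Apoe-/- cells, and from 32.5 ± 4.7 to 9.57 ± 0.79 and 1.84 ± 0.11 in DKO cells. Its log2 fold change with oxLDL 60 was -3.82 (adjusted p = 7.82e-10) and -4.07 (5.97e-10). Cyp27a1, the sterol 27-hydroxylase of mitochondria, was called in none.

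Of the receptors that Mylip marks for degradation, Lrp8, a receptor for apolipoprotein E and reelin, was at 3.19 ± 0.41 RPKM untreated and 10.5 ± 1.3 with oxLDL 60 in Apoe-/- cells and rose by 1.69, and it was at 3.97 ± 0.83 and 10.3 ± 0.8 RPKM in DKO cells and rose by 1.38. Vldlr was not tested. Mylip acts on the receptor proteins, which were not measured.

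Genes whose pattern was most like that of the transporters were sought by Pearson's r of log2 levels over the 18 libraries, among 10099 other tested genes with a mean of at least 1 RPKM. The libraries share groups and replicate numbers, so these values are descriptions. For Abca1 the closest were Abcg1 (r = 0.976), Mylip (0.955), Ap5s1 (0.953), Tmem86a (0.944) and Scd2 (0.917). For Abcg1 they were Ap5s1 (0.984), Mylip (0.983), Abca1 (0.976), Scd2 (0.948) and Tmem86a (0.939). Ap5s1, a subunit of an adaptor complex of late endosomes, ran from 6.05 to 14.8 RPKM and rose with oxLDL 60 by 0.81 in Apoe-/- and 0.97 in DKO cells. Tmem86a, a lysoplasmalogenase, ran from 16.6 to 43.3 RPKM and rose by 0.69 and 0.79.

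The 5 genes most like Nr1h3 were Acp2 (r = 0.973), Lrrc25 (0.97), Rin2 (0.967), Igsf6 (0.964) and Psmb9 (0.964). Acp2, which codes for lysosomal acid phosphatase, is the neighbour of Nr1h3 on the other strand, at chr2:91202885-91214098, and 50 bases lie between the annotated ends of the 2 genes. Acp2 ranged from 28.3 to 53.1 RPKM and fell with oxLDL 60 by 0.67 in Apoe-/- (adjusted p = 3.64e-05) and by 0.60 in DKO cells (adjusted p = 1.25e-04). Igsf6 fell by 1.17 and 1.04. Among the 8 genes themselves, Nr1h3 had negative r with Mylip (-0.624), Lpcat3 (-0.588), Arl4c (-0.555), Abcg1 (-0.538) and Abca1 (-0.412). It had positive r with Nr1h2 (0.431) and Pltp (0.247). These r include the differences between the oxLDL groups. Among untreated libraries of a genotype, Abca1, Abcg1 and Mylip ranked in the same order as Nr1h3 in both genotypes. Arl4c did so only in Apoe-/- cells, and Lpcat3 in neither. With oxLDL the order matched in some groups only.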

How the data were processed

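Bulk RNA-seq of 18 libraries of mouse BMDM was analysed from the deposited table of gene RPKM. Per the labels and the study's methods the authors aligned reads with STAR to mm10 and deposited RPKM. The study's methods name a workflow that includes Subread and RnaSeQC and poly(A)-selected stranded libraries. Which tool made the RPKM values, its strand setting and its annotation are not given in the sources used here. The authors' own comparisons were made with DESeq2 and were not used. Depth was recovered from the steps of low RPKM values, of which 86.4% lay within 0.05 of a whole read (10.0% by chance), and no count test was possible.

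Values were tested on log2(RPKM + 0.1) with limma 3.58.1 in R 4.3.3 (lmFit and eBayes with trend), with 1 mean per group over all 18 libraries. A gene was kept when 3 or more libraries reached 0.1 RPKM (12838 of 18668), and within each comparison the Benjamini-Hochberg adjustment ran over all of these. The limits of 0.05 on the adjusted p and 1.4 on the fold follow the study's methods. Of the symbols, 24 look like dates and 2 occur more than once. Summaries used Python 3.11.15, pandas 2.3.3, numpy 2.4.6 and scipy 1.17.1, and plots matplotlib 3.10.9. The fit was tested on simulated data.

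The 8 genes, the lists and the tests were chosen with earlier results of these data known. Genes were named by a rule: the 8 genes, the deleted genes and sex-linked transcripts, from each list the called gene with the largest rise and the largest fall in each comparison (all genes of lists of 5 or fewer), and the 5 genes most correlated with Abca1, Abcg1 and Nr1h3. Replicate numbers pair libraries within a genotype, since the deviations of 18 of 18 same-number pairs correlated at over 0.1 (0.18 to 0.69). Between genotypes they do not (median -0.17 over 27 pairs). A replicate block, other pseudocounts and filters, rescaling, fits of only the groups compared, a term for the Xist-positive libraries, no limit on the fold and leaving out each library were tried as alternatives. The block was the number within a genotype, also for the interaction. For comparisons between the genotypes it was the number alone, which joins libraries of both genotypes. Leaving out all Xist-positive libraries was added after seeing the data. Intervals are 95% and cover the spread between libraries. Results of some listed genes are not reported here.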

Additional observations from a re-analysis of the deposited data

How the results depend on the processing

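Over 28 alternatives, the 20 called changes of the 8 genes kept their direction in all 560 values and their call in 552. Many of these alternatives could not turn a direction. Another filter, a block, the Xist term, fits of only the compared groups and leaving out a library of another group keep the group means as they are. Dropping the limit on the fold cannot lose a call. The 2 counts thus overstate how hard the calls were tried. The 8 lost calls were all those of Abca1 with oxLDL 10 in Apoe-/- cells (0.694 to 1.496 when 1 library was left out). With the replicate number as a block no call of the 8 genes changed. The block moved the count of genes called with oxLDL 10 in DKO cells from 290 to 449, those between the genotypes to 82 untreated and 23 with oxLDL 10, and those of the interaction to 1 and 5 with oxLDL 10 and 60, and the interaction of Scd2 became called (1.29 and 1.23). Between the genotypes the block joined equal numbers of both genotypes, whose libraries did not deviate together, so 82 and 23 do not come from a real pairing. With no limit on the fold, 904, 3873, 1731, 510, 3319 and 2000 genes were called in the 3 comparisons of Apoe-/- and the 3 of DKO cells (10 and 60 against untreated, 60 against 10), against 358, 1786, 829, 290, 1564 and 726, and 51 against 27 between the untreated genotypes, and Lpcat3 was then called with oxLDL 60 (0.40 and 0.41). Between the genotypes, 27 genes were called untreated, and 17 with no filter, 13 with only the compared groups fitted, 172 with a term for Xist-positive libraries and 308 without those libraries, the last 2 with 1 of the 8 genes, Abcg1 (-0.75 and -0.83). The counts with oxLDL 10 and 60 were 11 and 16, and 4 and 3 with only the compared groups, 75 and 49 with the Xist term, and 110 and 74 without those libraries. The interaction with oxLDL 60 gave 1 gene with a pseudocount of 1, 0 with 0.01, 0 with a filter of 1 RPKM and 0 with only the compared groups. Scd2 between the untreated genotypes was -1.13 with only the compared groups and no longer called. The cause was not tested.

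Leaving out 1 library at a time gave 185 to 361 genes with oxLDL 10 in DKO cells (185 without untreated replicate 3, 186 without oxLDL 10 replicate 2), 12 to 75 between the untreated genotypes with 0 to 1 of the 8 genes, 8 to 19 between the genotypes with oxLDL 60, and 0 to 2 for the interaction with oxLDL 60. Rescaling moved the share of higher calls from 33.9% to 50.5% between the amounts in DKO cells and from 81.5% to 58.3% between the untreated genotypes. Signs turned only for values near 0 that were not called. These were Pltp with oxLDL 10 in Apoe-/- cells (-0.0203 without Xist-positive libraries, -0.138 to 0.211 without 1 library), with oxLDL 60 (-0.0268 rescaled, -0.172 to 0.161) and between the amounts (0.0343 without Xist-positive libraries, -0.186 to 0.175), and in DKO cells with oxLDL 60 (-0.0613 to 0.320) and between the amounts (0.0264 rescaled, -0.262 to 0.125). Nr1h2 in Apoe-/- cells ran from -0.172 to 0.0182 with oxLDL 10 and from -0.0881 to 0.102 with oxLDL 60 (-0.0532 rescaled). Between the amounts, Abca1 in Apoe-/- cells ran from -0.0120 to 0.311, and Arl4c in DKO cells was at -0.0098 without Xist-positive libraries. Between the genotypes with oxLDL 10 and 60, Abca1 ran from -0.0765 to 0.246 and from -0.0418 to 0.202, and Abcg1 from -0.0866 to 0.109 and from -0.110 to 0.03001 (0.129 and 0.0293 without Xist-positive libraries). The spread between 3 libraries per group, and not depth, limits the values of Abca1 (SE 0.32).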
